A study of Mus musculus with 6 samples.

Results

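The genes described here are 33 imprinted genes, that is, genes of which one parental copy is silenced, in isolated mouse pancreatic islets. They were chosen by name from the literature on imprinting, with earlier results of these data known. They were found by gene symbol in the count tables, which list 48397 genes, and all 33 had a row. Islets came from wild-type mice of the C57B6 strain and are a mixture of hormone-producing and other cells. After a night of recovery they were kept for 24 h with recombinant mouse prolactin at 500 ng/mL, or for 24 h with the solvent DMSO as the control, and polyadenylated RNA was sequenced from 3 libraries per condition. Whether a library stands for its own animal or culture is not stated, and p-values therefore refer to the spread between libraries, which may be technical. The age and sex of the mice and the number pooled are not given in the sources used here.

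Imprinted genes lie in clusters, and each cluster is governed by a control region whose DNA methylation is laid down in the egg or the sperm. In most clusters a long noncoding RNA is made from one parental copy and protein-coding neighbours are silenced on that same copy. Many imprinted genes act on growth, nutrient supply and hormone signalling, and in islets several of them, among them Igf2, Cdkn1c, Grb10 and Meg3, are known for their links with beta-cell number or insulin secretion. Prolactin and the placental lactogens drive the growth of beta cells in rodent pregnancy. As background, 20 of the 33 genes are expressed from the paternal copy, 10 from the maternal copy, and 3 (Gnas, Grb10 and Ube3a) from one or both according to tissue or promoter. The counts do not separate the parental copies, so nothing here shows which copy was read.

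Total counts per library ranged from 230833584 to 264885071 in prolactin and from 264466143 to 530296257 in control. Insulin, glucagon, somatostatin and pancreatic polypeptide transcripts were all abundant, with Ins2 at 73423 ± 2420 CPM (counts scaled to a common library size) in prolactin and 79029 ± 9800 CPM in control (SD, n = 3 each), so the defining markers of the labelled tissue were present. Prolactin replicates 2 and 3 were much closer to each other than any other pair (SD of the log2 difference over genes 0.0568, against 0.163 to 0.264 for the other pairs). Control replicate 3 stood apart in markers of other cell types. Its stromal markers were the lowest of all libraries, with a summed level of 880.4 CPM against 1242 to 1940 CPM in the other 5, and its acinar markers were the highest, at 3228 CPM against 601.0 to 2120 CPM.

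Of the 33 genes, 32 passed the filter on low counts and 1 was called by edgeR's quasi-likelihood test at an adjusted p under 0.05. That gene was Gnas, which rose, and 0 members fell at this threshold. DESeq2 called 3 members higher (Gnas, Kcnq1ot1 and Zim1) and 0 lower, and limma-voom 1 higher (Gnas) and 0 lower, where they called 5.71% and 0.74% of all the genes they tested. Over all 23924 genes tested, 0.757% were called, 0.652% higher and 0.104% lower in prolactin. The median log2 change over the 32 tested members was -0.02, against 0.00 over all genes tested, with 14 members positive and 18 negative. The prolactin and control libraries did not overlap in 7 of the 32 members, 5 higher and 2 lower, and the share over all genes tested was 21.6%, made up of 11.3% higher and 10.4% lower. Without adjustment, 8 members had p under 0.05, 5 of them higher and 3 lower, where 14.5% of all genes tested lay under that value (7.78% higher, 6.68% lower). For the 23 members with a mean of 5 CPM or more, the median size of the log2 change, sign left aside, was 0.14, against 0.077 over the 11590 genes at that level. Because the members were chosen with earlier results of these data known, these differences from all genes were not tested.

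Levels among the imprinted genes, in TPM (transcript abundance per length of exon, scaled to a fixed total), ran from a mean of 317.0 TPM for Peg3 to 0.0397 TPM for H19. Peg3, a zinc-finger protein gene, stood first at 325.0 ± 27.6 TPM in prolactin and 308.9 ± 51.0 TPM in control (SD, n = 3 each). The noncoding RNA Meg3 had 93.4 ± 5.7 TPM in prolactin and 100.5 ± 31.7 TPM in control, and Impact, whose product restrains the kinase GCN2, had 85.1 ± 0.9 TPM in prolactin and 96.2 ± 9.6 TPM in control. Meg3 and Impact could not be ordered, since their libraries overlapped. Igf2r, Peg13, Gnas, Rian, Ndn and Snrpn followed with means over all libraries from 57.2 TPM for Igf2r to 30.8 TPM for Snrpn. Among the 32 pairs of neighbours in this order, the 6 libraries of one gene lay wholly above those of the next in 11. A group of 7 genes had a mean under 1 CPM: Cdkn1c, Nespas, Dio3, Magel2, Phlda2, Ascl2 and H19. Peg3, Meg3 and Rian together made up 68.5% to 69.9% of the members' summed CPM in prolactin and 68.3% to 73.5% in control. That sum was 3772 to 4002 CPM in prolactin and 3523 to 4426 CPM in control, so the conditions overlapped.

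**Figure D1:**
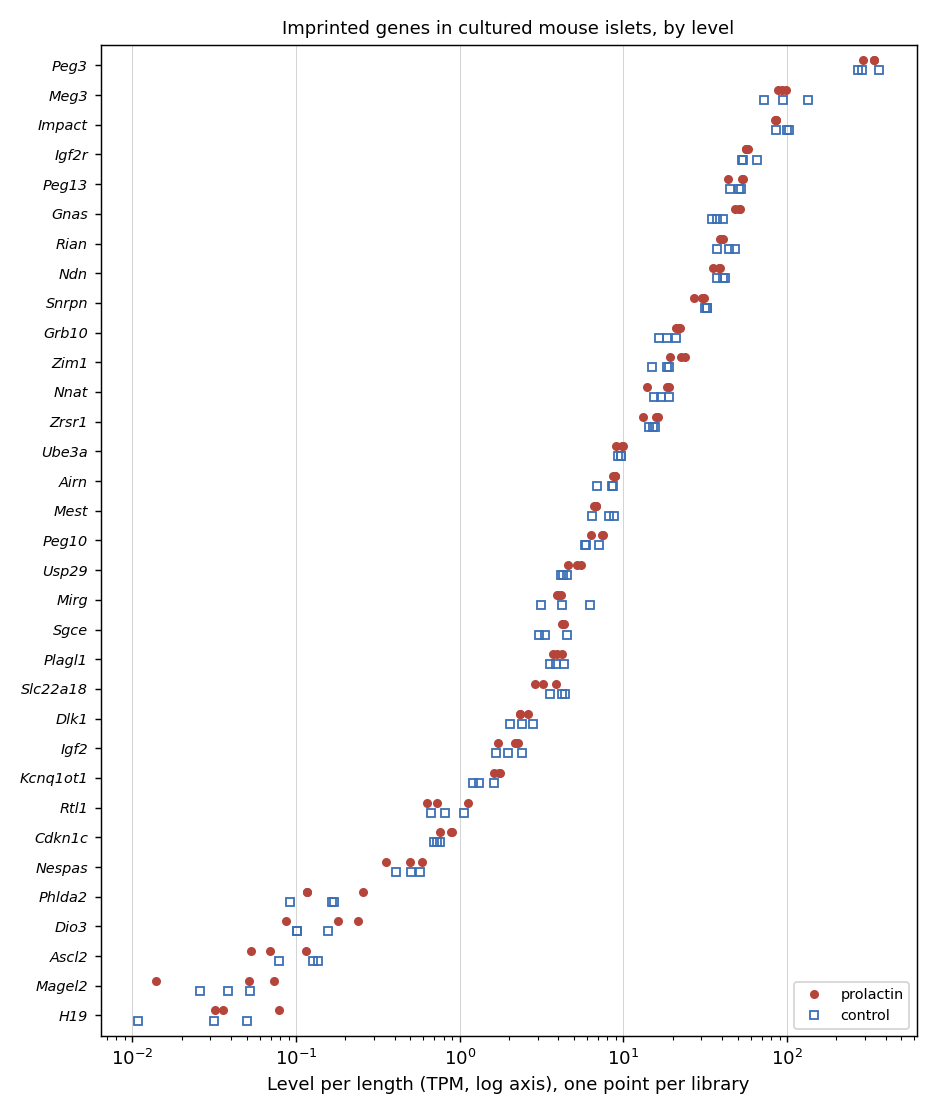
TPM on a log axis for the 33 imprinted genes, ordered by their mean, with 1 filled circle per prolactin library above 1 open square per control library. Peg3 leads at a mean of 317.0 TPM over the 6 libraries and H19 is last at 0.0397 TPM, and Gnas shows its prolactin circles to the right of its control squares.

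Gnas encodes the stimulatory G protein alpha subunit (Gs-alpha), which couples receptors for glucagon, incretins and other hormones to adenylyl cyclase. The locus (chromosome 2, 174284320 to 174346744, plus strand, mm10) has several first exons. These give NESP55, a secretory granule protein made from the maternal copy, XL-alpha-s, made from the paternal copy, the exon 1A transcript, made from the paternal copy, and Gs-alpha itself, which most tissues make from both copies. RefSeq start regions (GRCm38.p6, 250 bases before to 50 after the start, plus strand) are shown with each CG in capitals, named by their order along the locus. Methylation was not measured, so the capitals mark sequence only and do not show where the imprint lies. No window for XL-alpha-s is shown.
Gs-alpha start, chr2:174329756-174330055: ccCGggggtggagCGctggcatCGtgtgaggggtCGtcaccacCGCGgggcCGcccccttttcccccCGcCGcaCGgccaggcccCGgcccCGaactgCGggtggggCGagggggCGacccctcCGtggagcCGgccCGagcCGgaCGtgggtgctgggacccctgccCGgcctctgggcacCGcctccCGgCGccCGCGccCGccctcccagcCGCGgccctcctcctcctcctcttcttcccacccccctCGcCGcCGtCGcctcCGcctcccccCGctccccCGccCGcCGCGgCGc
Exon 1A start, chr2:174327499-174327798: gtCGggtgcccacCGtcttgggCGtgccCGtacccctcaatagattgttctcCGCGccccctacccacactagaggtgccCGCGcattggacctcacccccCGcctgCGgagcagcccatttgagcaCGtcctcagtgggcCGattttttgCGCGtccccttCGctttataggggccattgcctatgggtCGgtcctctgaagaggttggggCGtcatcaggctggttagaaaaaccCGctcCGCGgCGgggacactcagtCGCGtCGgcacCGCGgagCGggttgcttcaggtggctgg
NESP55 start, chr2:174284070-174284369: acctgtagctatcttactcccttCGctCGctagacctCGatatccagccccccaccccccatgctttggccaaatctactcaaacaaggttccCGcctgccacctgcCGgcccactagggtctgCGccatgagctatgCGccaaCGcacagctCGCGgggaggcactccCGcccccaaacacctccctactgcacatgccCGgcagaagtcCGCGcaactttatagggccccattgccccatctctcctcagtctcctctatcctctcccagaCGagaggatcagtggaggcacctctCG
The Gs-alpha window held 40 CG, the exon 1A window 27 and the NESP55 window 16, where the median over all 32851 RefSeq windows was 7. Windows with at least 40 CG made up 3.91% of all, those with at least 27 made up 15.5% and those with at least 16 made up 33.0%.

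Gnas had 224.6, 228.9 and 228.2 CPM in prolactin replicates 1, 2 and 3, against 170.3, 167.8 and 181.4 CPM in control replicates 1, 2 and 3. All 3 prolactin libraries lay above all 3 control libraries, and they lay closer together than the control libraries did (SD 2.31 CPM in prolactin, 7.25 CPM in control). The log2 change was 0.39 (SE 0.055, 95% interval 0.27 to 0.52, edgeR adjusted p = 0.0181), a 1.31-fold higher level. The counts are summed over the whole locus and do not tell which first exon was used. The call was not kept when some libraries were left out: adjusted p was 0.0748 without control replicate 2, 0.0602 without prolactin replicate 1, 0.153 without prolactin replicate 2, 0.148 without prolactin replicate 3 and 0.157 with prolactin replicates 2 and 3 summed, while the log2 change stayed between 0.37 and 0.43 over the fits without 1 library. In the same libraries the stromal marker list was higher in prolactin, with a summed level of 1591 to 1940 CPM in prolactin and 880.4 to 1299 CPM in control (20 of 20 tested members positive, 3 called, median log2 change 0.53). The summed level of the delta-cell and PP-cell list was lower, with 5663 to 7024 CPM in prolactin and 8025 to 8488 CPM in control. Of its 7 members 2 were positive and 1 was called (Sst), and the median log2 change was only -0.06. Ppy had a log2 change of -0.74 and no overlap between the groups, but did not pass (edgeR adjusted p = 0.0708). DESeq2 called 2 members of this list lower, Ppy and Sst. The stromal count was 11 by DESeq2 and 1 without control replicate 2 or any 1 prolactin replicate. Sst, with an edgeR adjusted p = 0.0488, passed in 1 of 6 fits without 1 library (adjusted p 0.0366 to 0.279) and in 7 of 15 alternatives. None of these markers was at 0 in all libraries, and their part in the rise of Gnas was not tested. Without control replicate 3 the stromal list was still higher in prolactin (6 called) and Gnas had an edgeR adjusted p = 0.00896. Calls over all genes also rose in that fit, to 342 higher and 234 lower, from 156 and 25 with all libraries. In bulk samples, more cells of a type and more RNA per cell cannot be told apart.

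Nespas, the paternally expressed noncoding RNA that runs antisense to NESP55, shares 988 bases of exon with Gnas, 31.4% of its own length and 8.83% of that of Gnas. It was low, at 0.614 ± 0.151 CPM in prolactin and 0.639 ± 0.0815 CPM in control (SD, n = 3 each), and did not pass (log2 change -0.06, 95% interval -0.54 to 0.41, edgeR adjusted p = 0.923). The recorded counting command had no option for reads that lie on several genes, which the tool then leaves out, and no strand option, so reads of the 2 genes cannot be told apart by strand.

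**Figure D2:**
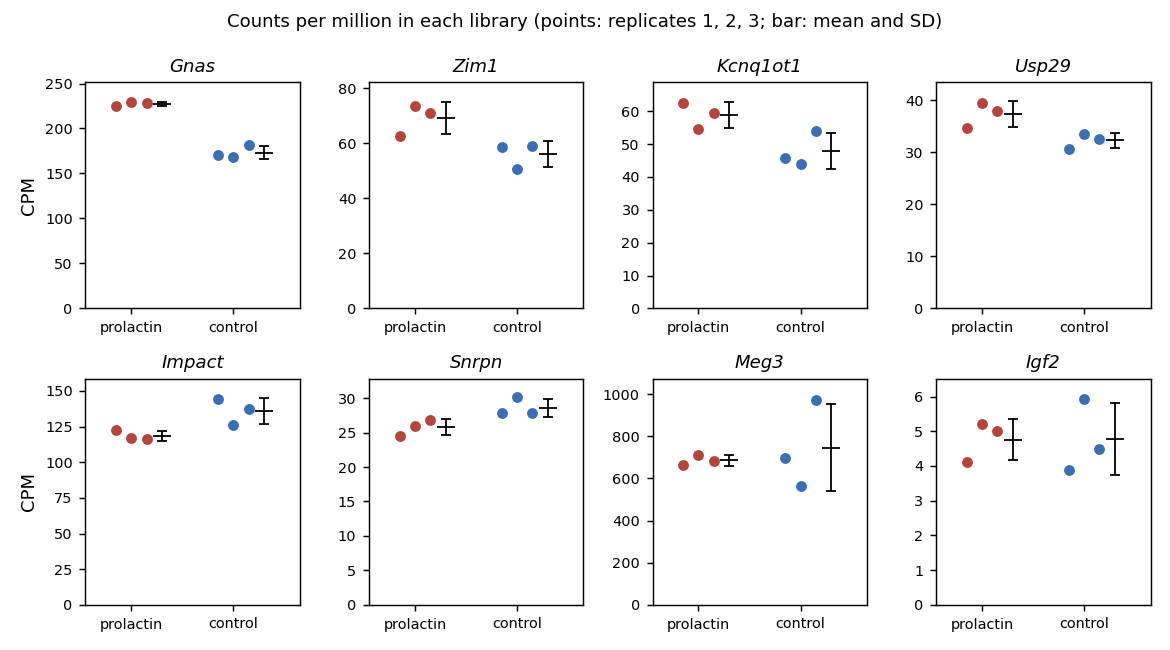
CPM of 8 imprinted genes in each library, prolactin on the left and control on the right of every panel, with points in the order of replicates 1, 2 and 3 and the mean with its SD beside them; each axis starts at 0. Gnas, Zim1, Kcnq1ot1 and Usp29 are higher and Impact and Snrpn lower in every prolactin library than in any control library, Meg3 has one control library at 971.5 CPM, and Igf2 overlaps fully.

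At the Peg3 cluster (chromosome 7), all 3 members had positive changes and none passed the test. Peg3 and Usp29, a ubiquitin-protease family gene, are read in opposite directions from starts 147 bases apart and both are expressed from the paternal copy, while their neighbour Zim1, a zinc-finger gene, is expressed from the maternal copy. The RefSeq start windows of Peg3 and Usp29 share 263 bases, and both hold the palindromic cAMP response element TGACGTCA, in capitals in the Peg3 window (GRCm38.p6, minus strand).
Peg3 start, chr7:6730370-6730669: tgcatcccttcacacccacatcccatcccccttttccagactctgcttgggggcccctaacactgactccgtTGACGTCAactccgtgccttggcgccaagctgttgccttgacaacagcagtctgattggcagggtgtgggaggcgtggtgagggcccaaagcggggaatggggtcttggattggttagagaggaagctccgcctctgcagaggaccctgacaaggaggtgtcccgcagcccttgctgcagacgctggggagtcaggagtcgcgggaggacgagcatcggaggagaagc
The first base of the element is at -178 from the Peg3 start, and the same bases lie just inside the Usp29 transcript. TGACGTCA was found in 1.79% of all RefSeq windows and in 3 of the 38 windows of the members, those of Peg3, Usp29 and Meg3. The windows of 25 of the 33 members were in the table.

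Zim1 had 62.7, 73.6 and 71.0 CPM in prolactin, against 58.7, 50.6 and 59.0 CPM in control, so that the groups did not overlap but prolactin replicate 1 stood close to the control range. Its log2 change was 0.30 (SE 0.081, 95% interval 0.12 to 0.48) with an edgeR adjusted p = 0.143. Usp29 had 34.6, 39.5 and 37.9 CPM in prolactin and 30.7, 33.5 and 32.6 CPM in control, again with no overlap (log2 change 0.21, SE 0.064, edgeR adjusted p = 0.183). Neither gene passed over all genes tested. Peg3 itself had 1632.5, 1801.5 and 1830.9 CPM in prolactin and 1575.2, 1558.9 and 1948.2 CPM in control. Here the groups overlapped, with control replicate 3 the highest of all libraries (log2 change 0.05, 95% interval -0.18 to 0.28, adjusted p = 0.86).

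In the Kcnq1ot1 cluster on distal chromosome 7, 3 of 5 members had positive changes and none passed. Kcnq1ot1 is a very long, unspliced noncoding RNA, made from the paternal copy, that silences Cdkn1c, Phlda2, Slc22a18 and Ascl2 on that copy. It had 62.4, 54.7 and 59.3 CPM in prolactin and 45.7, 43.9 and 54.0 CPM in control. Prolactin replicate 2 and control replicate 3 lay next to each other at the edge of the 2 groups. The log2 change was 0.30 (SE 0.085, 95% interval 0.11 to 0.49, edgeR adjusted p = 0.162), and it passed without control replicate 3 (adjusted p = 0.0347). Its single exon of 84395 bases lies within the span of Kcnq1 on the opposite strand, so without strand its reads and those of unspliced Kcnq1 RNA cannot be told apart. Kcnq1, a potassium channel gene, was low, at 1.96 ± 0.18 CPM in prolactin and 1.64 ± 0.29 CPM in control (log2 change 0.26, adjusted p = 0.488).

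Per length, Slc22a18 had the highest level of this cluster, with a mean of 3.70 TPM over the 6 libraries, against 1.55 TPM for Kcnq1ot1 and 0.785 TPM for Cdkn1c. Of the exon length of Cdkn1c 30.7% is shared with the locus Gm44732 on the opposite strand. Reads there would by default be counted for neither, while its TPM uses the full exon length. Cdkn1c, the cyclin-dependent kinase inhibitor p57, which is lost in focal hyperinsulinism in humans, had 0.643, 0.727 and 0.729 CPM in prolactin and 0.579, 0.666 and 0.587 CPM in control, and the groups overlapped (log2 change 0.20, 95% interval -0.14 to 0.53, edgeR adjusted p = 0.597). Slc22a18, a transporter of the organic cation family, had 2.30 ± 0.40 CPM in prolactin and 2.84 ± 0.19 CPM in control, with a log2 change of -0.31 (95% interval -0.62 to 0.01, adjusted p = 0.358). Phlda2, a placental growth restrainer, and Ascl2, a transcription factor of the trophoblast, had means of 0.0709 and 0.0646 CPM over the 6 libraries. Their 95% intervals were -0.87 to 1.15 and -1.47 to 0.45 on the log2 scale.

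At the neighbouring Igf2-H19 domain both genes were low. Igf2, the fetal growth factor expressed from the paternal copy, had 4.1, 5.2 and 5.0 CPM in prolactin, against 3.89, 5.92 and 4.50 CPM in control. The groups overlapped fully, and the log2 change was 0.00 (SE 0.16, 95% interval -0.36 to 0.36, edgeR adjusted p = 0.999). H19, its maternally expressed noncoding partner and one of the most abundant RNAs of the fetus, had raw counts of 18, 7 and 9 in prolactin and 26, 3 and 8 in control. It did not pass the filter on low counts and was not tested.

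In the Dlk1-Dio3 domain on chromosome 12, the maternally expressed noncoding RNAs Meg3 and Rian had means of 96.9 and 41.5 TPM over the 6 libraries and Mirg one of 4.28 TPM. The paternally expressed protein-coding genes had means of 2.41 TPM for Dlk1, 0.839 TPM for Rtl1 and 0.144 TPM for Dio3. Meg3, Rian and Mirg are believed to be processed from one long transcript, and Rian and Mirg host small nucleolar RNAs and microRNAs. The Meg3 start window (GRCm38.p6, plus strand) is shown with the cAMP response element TGACGTCA and the complement of TGCCGC, the hexamer bound by the imprint keeper ZFP57 when methylated, in capitals.
Meg3 start, chr12:109540746-109541045: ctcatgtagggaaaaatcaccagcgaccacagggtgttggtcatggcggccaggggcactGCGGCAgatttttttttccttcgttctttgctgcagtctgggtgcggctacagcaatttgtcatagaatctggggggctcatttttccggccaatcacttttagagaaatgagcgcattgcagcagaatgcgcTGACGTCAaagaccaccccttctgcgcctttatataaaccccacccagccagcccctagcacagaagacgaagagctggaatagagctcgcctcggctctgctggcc
The first base of the cAMP response element is at -57 from the start. TGCCGC, read on both strands, was in 9 of the 38 member windows (23.7%) and in 11.6% of all RefSeq windows. The 9 windows belong to 8 genes, Grb10, Igf2, Meg3, Mest, Nnat, Plagl1, Snrpn and Zim1, with overlapping windows of Mest counted separately. The hexamer holds a CG, and the median CG count was 13 in the member windows against 7 over all windows. These shares therefore do not compare like with like, and the difference was not tested. TTCNNNGAA, the palindromic site of STAT5, which acts downstream of the prolactin receptor, was in 1 member window, that of Rian, and in 8.30% of all windows. The 2 motifs do not overlap in the Meg3 window.

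Meg3 had 662.2, 712.0 and 681.2 CPM in prolactin, against 698.7, 564.3 and 971.5 CPM in control. The prolactin libraries were close together, and lay between control replicates 2 and 3, which differed 1.72-fold (log2 change -0.12, SE 0.16, 95% interval -0.49 to 0.25, edgeR adjusted p = 0.789). Rian had 288.4, 284.2 and 272.5 CPM in prolactin and 317.6, 282.4 and 334.4 CPM in control (log2 change -0.15, SE 0.072, adjusted p = 0.401). Mirg had 12.7, 11.5 and 11.5 CPM in prolactin and 12.6, 9.96 and 18.2 CPM in control (log2 change -0.19, adjusted p = 0.687). For Meg3 and Mirg control replicate 3 was the highest library and control replicate 2 the lowest, and for Rian control replicate 3 was the highest and prolactin replicate 3 the lowest. The acinar marker list had the same order among the controls, with summed levels of 1631, 601.0 and 3228 CPM in control replicates 1, 2 and 3. In prolactin replicates 1, 2 and 3 the list had 2120, 985.2 and 1029 CPM. Among these prolactin libraries Meg3 was lowest in replicate 1, while Rian and Mirg were highest there. Of the 17 tested acinar markers 1 was positive, the median log2 change was -0.44, and edgeR and limma-voom called 0. The positive member, Bhlha15 (log2 change 0.25), was the only one under an unadjusted edgeR p of 0.05 and the only one called by DESeq2. The part of this list in the levels of Meg3, Rian and Mirg was not tested. Without control replicate 3 the log2 change of Meg3 was 0.12 and that of Mirg 0.07, so their sign turned on that library.

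Dlk1, a membrane protein related to the Notch ligands, had 5.56 ± 0.52 CPM in prolactin and 5.64 ± 0.98 CPM in control (SD, n = 3 each; log2 change -0.02, 95% interval -0.32 to 0.28, edgeR adjusted p = 0.961). Rtl1, a retrotransposon-derived gene, had 3.0, 1.6 and 1.85 CPM in prolactin and 2.11, 1.84 and 2.70 CPM in control. Prolactin replicate 1 was the highest and prolactin replicate 2 the lowest of all 6 (log2 change -0.04, 95% interval -0.58 to 0.49). The 7 microRNA genes that overlap exons of Rtl1 were listed at 0 in every library, and reads on them would by default be counted for neither gene. Dio3, the deiodinase that inactivates thyroid hormone, was low, with means of 0.138 CPM in prolactin and 0.10 CPM in control.

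Grb10 and Igf2r, outside these clusters, act in the pathways of insulin and IGF. Grb10, an adaptor that restrains the insulin and IGF1 receptors, had 83.8, 78.2 and 76.7 CPM in prolactin and 78.1, 64.9 and 66.6 CPM in control. Control replicate 1 lay inside the prolactin range (log2 change 0.19, 95% interval 0.01 to 0.36, edgeR adjusted p = 0.311). Igf2r, the receptor that clears IGF2 and is expressed from the maternal copy, had 218.2 ± 5.7 CPM in prolactin and 223.0 ± 21.7 CPM in control (log2 change -0.03, 95% interval -0.20 to 0.14, adjusted p = 0.886). Airn, the paternal noncoding RNA that runs across the Igf2r promoter, had 13, 12.6 and 12.8 CPM in prolactin and 12.5, 10.7 and 12.3 CPM in control. Its libraries were separate by a narrow margin and it did not pass (log2 change 0.12, 95% interval -0.05 to 0.29, adjusted p = 0.513).

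Impact and Mest were the members with a mean of 5 CPM or more whose log2 changes were lowest. Impact (chromosome 18, 12972252 to 12992948), expressed from the paternal copy, had 122.6, 117.2 and 116.0 CPM in prolactin and 144.4, 126.3 and 137.6 CPM in control. Every prolactin library was below every control library, yet the gene did not pass (log2 change -0.20, SE 0.062, 95% interval -0.34 to -0.06, edgeR adjusted p = 0.195). Mest, an enzyme of the hydrolase fold family linked with growth of fat tissue, had 11.1, 10.4 and 10.8 CPM in prolactin and 13.3, 11.0 and 13.9 CPM in control. Control replicate 2 lay among the prolactin libraries (log2 change -0.24, SE 0.091, 95% interval -0.44 to -0.03, adjusted p = 0.284). Mest shares 912 bases of exon, 23.1% of its length, with Copg2 on the opposite strand, a coat protein gene that had 62.7 ± 1.55 CPM in prolactin and 72.9 ± 4.6 CPM in control (log2 change -0.22, adjusted p = 0.146).

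In the Snrpn domain on central chromosome 7, which corresponds to the Prader-Willi and Angelman region in humans, 3 of 4 members had negative changes and none passed. Snrpn, a core protein gene of the spliceosome, had 24.5, 26.0 and 26.8 CPM in prolactin and 27.8, 30.1 and 27.9 CPM in control. The groups did not overlap (log2 change -0.15, SE 0.059, 95% interval -0.28 to -0.02, edgeR adjusted p = 0.294). Of its exon length 27.3% is shared with the locus Gm38393 on the same strand, where reads would by default be counted for neither. Ndn, the MAGE-family protein necdin, had 56.4 ± 1.8 CPM in prolactin and 61.0 ± 5.3 CPM in control (log2 change -0.11, adjusted p = 0.489), while its close relative Magel2 was barely detected, at 0.0870 ± 0.0561 CPM in prolactin and 0.0737 ± 0.0237 CPM in control. Ube3a, a ubiquitin ligase whose paternal copy is silenced in neurons by the antisense RNA Snhg14, had 80.4 ± 2.1 CPM in prolactin and 81.4 ± 5.0 CPM in control. Its log2 change was -0.02, with an interval of -0.15 to 0.11. Snhg14 had 11.9 ± 0.3 CPM in prolactin and 12.6 ± 1.3 CPM in control (log2 change -0.08, adjusted p = 0.718), and 8.74% of the exon length of Ube3a overlaps it.

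The remaining paternally expressed genes did not pass either. Peg10 and Sgce (epsilon-sarcoglycan) are read in opposite directions from starts 99 bases apart. Peg10, a gene derived from a retrotransposon, had 19.1 ± 1.2 CPM in prolactin and 17.3 ± 2.0 CPM in control (SD, n = 3 each), and Sgce 18.4 ± 0.5 CPM in prolactin and 15.9 ± 3.4 CPM in control. Their log2 changes were 0.14 and 0.21 (edgeR adjusted p = 0.521 and 0.515), and in both genes control replicate 3 was the lowest library. Nnat, a small membrane protein of the endoplasmic reticulum known to aid the processing of preproinsulin, had 10.7, 13.8 and 13.6 CPM in prolactin and 11.5, 14.9 and 12.4 CPM in control. The groups overlapped (log2 change -0.03, 95% interval -0.31 to 0.25, adjusted p = 0.939). Plagl1, a zinc-finger factor whose over-expression is linked with transient neonatal diabetes in humans, had 12.5 ± 0.5 CPM in prolactin and 12.7 ± 0.8 CPM in control (95% interval -0.18 to 0.14). Zrsr1, a retrogene related to a splicing factor, and Peg13, a noncoding RNA, had means of 20.2 and 96.3 CPM over the 6 libraries, with intervals of -0.20 to 0.15 and -0.19 to 0.19. Nnat, Zrsr1 and Peg13 each lie within the span of a host gene, Blcap, Commd1 and Trappc9, whose own log2 changes were -0.04, 0.01 and -0.07.

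**Figure D3:**
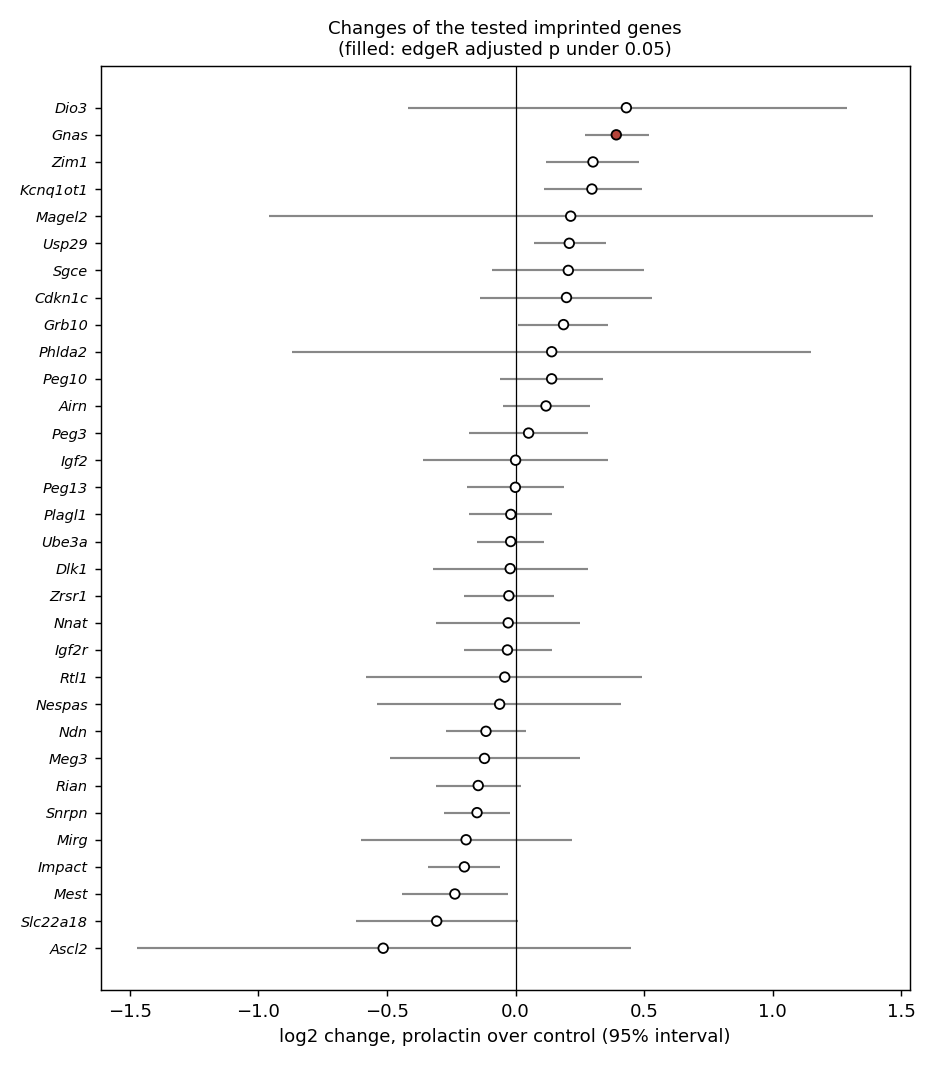
log2 change of prolactin over control with its 95% interval for the 32 tested imprinted genes, from the highest at the top to the lowest; the filled point marks the gene called by edgeR. Gnas (0.39) is the 1 filled point, and the interval of Magel2 runs from -0.96 to 1.39.

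Grouped by the copy known to be expressed, the 20 paternally expressed genes had a median log2 change of -0.01 (9 positive, 11 negative, 0 called; 20 tested), and the 9 tested of 10 maternally expressed genes had a median of -0.12 (3 positive, 6 negative, 0 called). The 3 genes whose expressed copy depends on tissue or promoter included the 1 called gene. In the Kcnq1ot1 cluster the log2 changes ran from -0.51 to 0.30 and in the Dlk1-Dio3 domain from -0.19 to 0.43, and of the clusters with 2 or more tested members only the Peg3 and Peg10-Sgce clusters had all of them on one side of 0.

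**Figure D4:**
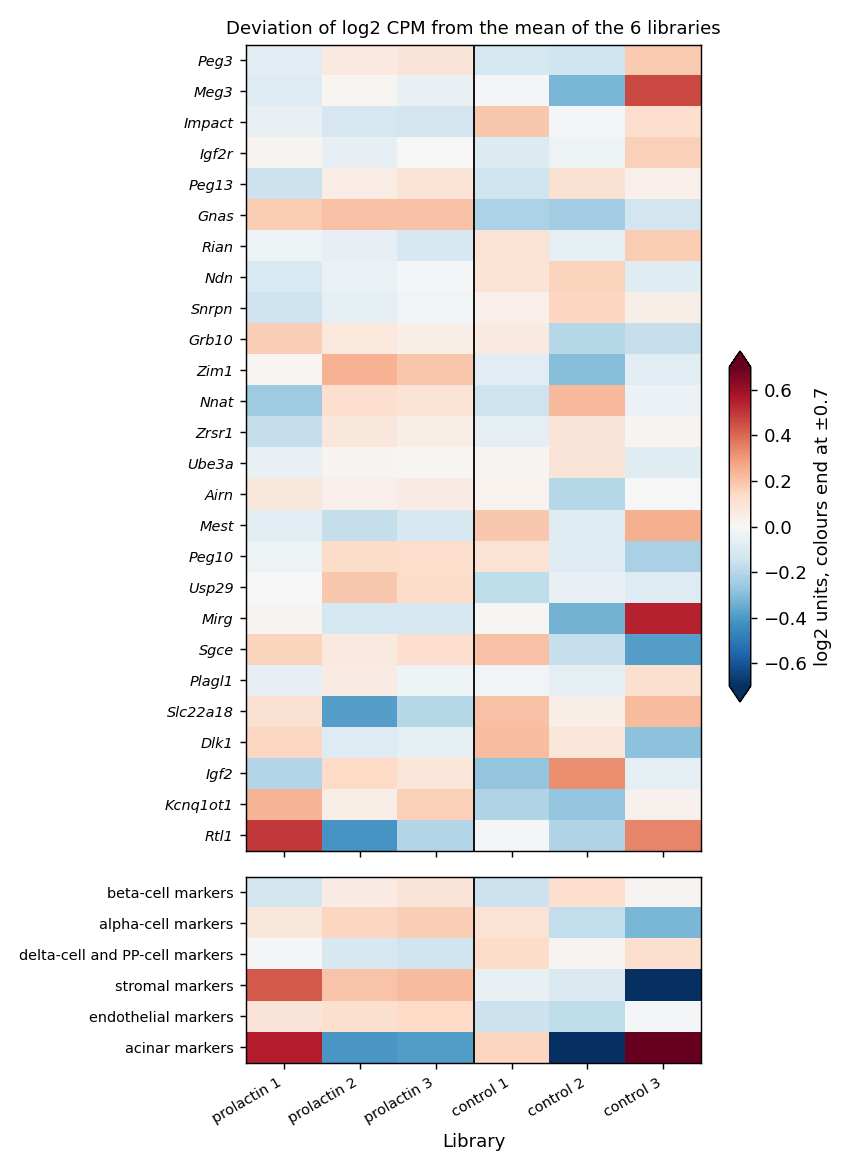
Deviation of log2 CPM from the mean of the 6 libraries for the 26 imprinted genes with a mean of 1 CPM or more (upper part, by level) and of the mean log2 CPM of 6 marker lists (lower part), with the 3 prolactin libraries left of the 3 control libraries; colours end at ±0.7. Gnas is pale red in every prolactin library and pale blue in every control library, Meg3 and Mirg are strongest red in control replicate 3, and that library has the lowest stromal and the highest acinar markers.

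Of 53 other genes reported as imprinted in at least one mouse tissue, 52 had a row and 47 were tested, and 2 rose, 0 fell and 45 did not pass, with a median log2 change of 0.05. DESeq2 called 3 higher (Ano1, Gatm and Tfpi2) and 0 lower, where 0.652% of all genes tested were higher by edgeR and 4.1% by DESeq2. Leaving out control replicate 1 left 1 gene higher, and leaving out control replicate 2, or either of prolactin replicates 2 and 3, or summing prolactin replicates 2 and 3, left 0. When control replicate 3 was left out, 1 gene was lower. Gatm, the first enzyme of creatine synthesis, had 79.3 ± 7.25 CPM in prolactin and 53.5 ± 2.7 CPM in control (SD, n = 3 each; log2 change 0.57, SE 0.074, edgeR adjusted p = 0.0133). Ano1, a calcium-activated chloride channel, had 14.6 ± 1.7 CPM in prolactin and 10.0 ± 0.6 CPM in control (log2 change 0.54, SE 0.091, adjusted p = 0.0377). Both are known as imprinted mainly in extra-embryonic tissue. Over the fits without 1 library the adjusted p ranged from 0.0070 to 0.0861 for Gatm and from 0.0490 to 0.153 for Ano1.

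Of 29 factors that set or keep imprints, 28 were tested and 0 passed with edgeR. Without adjustment 4 of the 28 had p under 0.05, against 14.5% of all genes tested, so their number does not stand out from the background. Of these 4, DESeq2 called 3 (Dnmt3b, Kdm1b and Mbd3) and limma-voom 0, where they called 5.71% and 0.74% of all the genes they tested. The 4 were Kdm1b, a histone demethylase of the oocyte (log2 change -0.24, adjusted p = 0.0763), Mbd3, a subunit of the NuRD complex (0.23, adjusted p = 0.114), Dnmt3b, a methyltransferase (0.39, adjusted p = 0.136), and Zfp445, a zinc-finger imprint keeper (-0.12, adjusted p = 0.34). Zfp57, the other such zinc-finger factor, was low, at 0.701 ± 0.069 CPM in prolactin and 0.643 ± 0.053 CPM in control. Its partner Trim28 and the maintenance methyltransferase Dnmt1 each had a log2 change of 0.05, and Ctcf, which binds the unmethylated control region of Igf2 and H19, one of -0.02.

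Among 19 tested of 20 receptors, binding proteins and partners of IGF2, 2 rose, 0 fell and 17 did not pass, with 17 changes positive and a median log2 change of 0.10. The number higher was 4 by DESeq2 (Igfals, Igfbp3, Igfbp5 and Pappa), 2 by limma-voom, 5 with no filter on low counts, and 4 when control replicate 3 was left out and 1 when prolactin replicate 1 was. It was 0 when control replicate 2 or either of prolactin replicates 2 and 3 was left out, or when prolactin replicates 2 and 3 were summed. Over all genes tested, 0.652% were called higher by edgeR and 4.1% by DESeq2, and limma-voom called 0.74% in either direction. Igfals, which holds IGFs in a ternary complex in serum, had 52.6 ± 5.25 CPM in prolactin and 31.0 ± 4.1 CPM in control (SD, n = 3 each; log2 change 0.76, SE 0.11, edgeR adjusted p = 0.0181). Pappa, a protease that frees IGFs from IGFBP4, had 4.93 ± 0.90 CPM in prolactin and 2.18 ± 0.43 CPM in control (log2 change 1.17, SE 0.17, adjusted p = 0.0238). Over the fits without 1 library their adjusted p ranged from 0.0136 to 0.105 for Igfals and from 0.0257 to 0.0961 for Pappa. The receptors Igf1r and Insr had log2 changes of 0.04 and 0.01, and Igf2 itself, as given above, one of 0.00. The stromal marker list given above (20 of 20 positive, 3 called) was positive beside this list, and its part was not tested.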

How the data were processed

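Polyadenylated RNA of 3 prolactin and 3 control libraries was measured. The deposited counts are whole-number reads per gene, made by the authors with featureCounts v2.0.3 on the GENCODE vM10 annotation, with paired reads summed over each gene name (per the file headers); genome build was mm10, per the submitters' processing notes. No source used here names the aligner. The share of even values among counts of 1 to 20 was 53.9% to 56.3%, and whether both mates of a pair were counted was not settled, so counts were also halved as an alternative. Read depth per library is given in the report, and intervals cover the spread between libraries.

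Tests used edgeR 4.0.16 under R 4.3.3, on all 6 libraries, with TMM scaling, filterByExpr (minimum count 10, minimum total 15), glmQLFit and glmQLFTest, two-sided, with Benjamini-Hochberg adjustment over all 23924 genes kept and a threshold of 0.05. SE is the log2 change divided by the square root of F, and intervals are at 95%. CPM uses TMM-scaled library sizes, and TPM uses the exon length in the files. The fit was tested on simulated data. Alternatives were DESeq2 1.42.0, limma 3.58.1 (voom), other scalings and filters, a replicate block, leaving out each library, summing prolactin replicates 2 and 3, and halved counts.

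Members and gene lists were chosen with earlier results of these data known. All members are named, and from each other list every gene past the threshold, otherwise up to 4 with the smallest p that the text uses; hormone genes and genes sharing exon with a member at 1 CPM or more could be named too. Blcap, Trappc9, Zfp57, Trim28, Dnmt1, Ctcf, Igf1r and Insr were named after their values were seen. Start windows are from RefSeq (GRCm38.p6), searched on both strands, and 25 of 33 members matched by symbol.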

Additional observations from a re-analysis of the deposited data

How the results depend on the processing

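Gnas kept its direction in all 15 alternatives and passed in 10 of them, with adjusted p from 4.91e-07 to 0.157. Imprinted genes higher in prolactin numbered 3 with no filter on low counts, 3 by DESeq2 (Gnas, Kcnq1ot1 and Zim1 in both), 0 with prolactin replicates 2 and 3 summed, and 0 to 2 over the fits without 1 library (0 without control replicate 2 and without each prolactin replicate, 2 without control replicate 3). Over all genes, higher and lower calls, 156 and 25 as reported, were 470 and 127 with no filter, 776 and 303 by DESeq2, 42 and 2 with the summed libraries, and 39 to 342 and 1 to 234 without 1 library (lowest without prolactin replicate 2, highest without control replicate 3). With a filter of 1 CPM, 46 genes were lower. With the replicate number as a block, the calls were 464 and 134. Libraries of the same number had deviations correlated at 0.541, 0.324 and 0.087, control replicate 2 went best with prolactin replicate 3 (0.35), and nothing in the labels pairs them; the block changed no call among the 33 members, while other imprinted genes higher in prolactin numbered 3 with it against 2, and IGF2 partners 5 against 2.

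Of the 32 tested members, 17 kept their sign throughout and 15 did not. Peg13 had a log2 change of 0.00 with DESeq2 size factors, no filter, DESeq2 and halved counts and 0.01 with upper-quartile scaling and the 1 CPM filter, and Magel2 had -0.04 by limma-voom. With the summed libraries Igf2 was at -0.05, Dlk1 at 0.02 and Rtl1 at 0.09. Over the fits without 1 library the log2 change ranged from -0.13 to 0.18 for Igf2, from -0.08 to 0.05 for Igf2r, from -0.29 to 0.12 for Meg3, from -0.37 to 0.07 for Mirg, from -0.15 to 0.09 for Dlk1, from -0.36 to 0.13 for Rtl1, from -0.37 to 0.35 for Phlda2, from -0.01 to 0.16 for Peg3, from -0.06 to 0.03 for Plagl1, from -0.11 to 0.09 for Nnat, from -0.27 to 0.64 for Magel2, from -0.06 to 0.02 for Ube3a, from -0.22 to 0.12 for Nespas, from -0.07 to 0.04 for Zrsr1 and from -0.07 to 0.07 for Peg13. The causes were not tested. Of the 7 members under 1 CPM, Phlda2, Dio3, Ascl2, Magel2 and H19 rest on few counts. Cdkn1c had raw counts of 149 to 311 per library and Nespas 118 to 350.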
